A study of Homo sapiens with 6 samples.

Results

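The genes described here encode the AP-1 and immediate early transcription factors JUN, JUNB, JUND, FOS, FOSL1, FOSL2, EGR1, KLF6, KLF10 and MYC. They were taken by symbol, and all 10 of 10 were present among the 16362 genes of the count table. The cells carried the label MDA-MB-231, the name of a triple-negative human breast carcinoma line usually described as mesenchymal. They were cultured for 24 h with the agent CTI-2 (3 libraries) or without any agent (3 control libraries). CTI-2 is known here by its code name; no source used here gives its dose or a vehicle. Total RNA was made into cDNA by PCR and read as long molecules on the Oxford Nanopore platform. The series title names MAPK signalling, metastasis and epithelial-mesenchymal transition, and the comparison of CTI-2 with control asks what these nuclear end points of MAPK signalling looked like at the RNA level.

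AP-1 is a dimer of a JUN protein with a FOS protein or with another JUN protein, joined by leucine zippers, and it binds the sequence TGACTCA. Growth factors and stress switch on FOS, JUN and EGR1 within minutes through ERK and JNK, and the messages then decay quickly, which is why such genes are called immediate early. FOSL1 (FRA-1) accumulates when ERK activity is sustained and is known for its role in invasive breast cancer cells, while MYC drives growth and KLF6 and KLF10 are zinc finger factors induced by growth and TGF-beta signals.

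The control regions of several of these genes carry the elements through which those signals act, and they are shown to place the genes in that circuit. RefSeq promoter entries (GRCh38.p14) were at hand for 7 of the 10 genes, and the 250 bases before the RefSeq gene start were searched on both strands. The GENCODE 29 spans given below can start elsewhere: the windows of JUN, FOS, FOSL2 and KLF6 are not wholly outside them, and those of JUNB, JUND and EGR1 are. The EGR1 window holds a pair of CArG boxes, the element bound by serum response factor, and these are in capitals; the window lies at chr5:138465229-138465478 on the plus strand.
EGR1: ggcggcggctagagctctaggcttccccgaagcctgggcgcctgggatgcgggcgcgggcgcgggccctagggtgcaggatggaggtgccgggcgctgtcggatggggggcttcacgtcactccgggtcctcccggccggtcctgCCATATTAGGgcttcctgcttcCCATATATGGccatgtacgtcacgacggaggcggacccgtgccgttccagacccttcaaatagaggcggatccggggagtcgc

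The JUND window (chr19:18281623-18281872, minus strand) holds a cAMP response element and a CCAAT box, and the JUNB window (chr19:12791236-12791485, plus strand) a CCAAT box and a TATA box, all in capitals.
JUND: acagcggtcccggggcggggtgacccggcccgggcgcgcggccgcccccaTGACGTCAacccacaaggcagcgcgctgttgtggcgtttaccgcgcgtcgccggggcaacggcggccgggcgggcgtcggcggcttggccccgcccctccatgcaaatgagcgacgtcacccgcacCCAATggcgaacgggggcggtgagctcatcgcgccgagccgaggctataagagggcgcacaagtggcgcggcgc
JUNB: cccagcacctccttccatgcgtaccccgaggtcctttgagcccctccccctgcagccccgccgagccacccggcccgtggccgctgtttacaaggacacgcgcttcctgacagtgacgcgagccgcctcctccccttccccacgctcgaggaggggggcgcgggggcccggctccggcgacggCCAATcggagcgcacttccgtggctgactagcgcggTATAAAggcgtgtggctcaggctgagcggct

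JUN and KLF6 share the AP-1 variant TGACATCA, in JUN the site through which JUN protein is known to act on its own gene. In 30-base windows at chr1:58784096-58784125 (JUN, minus strand) and chr10:3785363-3785392 (KLF6, minus strand) it is in capitals; the JUN window lies inside the GENCODE 29 span of JUN, and the KLF6 window outside that of KLF6.
JUN: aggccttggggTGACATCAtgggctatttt
KLF6: ttggccggagcTGACATCAtcggcgcgcag

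These letters also occurred in other windows, in shares that ran from 0.72% to 32%. Of 35116 RefSeq windows of the same length, TGACATCA occurred in 2.37%, the cAMP response element TGACGTCA in 1.65%, TGACTCA in 4.2% and 1 or more CArG boxes in 1.16%. Windows with a pair of CArG boxes were not counted apart. CCAAT occurred in 32%, the TATA box TATAAA in 10.7%, the E-box CACGTG in 6.34% and the EGR element GCGTGGGCG in 0.72%. No match overlapped another in the windows printed. The FOS window held TATAAA, the KLF6 window also held CACGTG and CCAAT, and the FOSL2 window held none of these.

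Library totals ran from 2208261 to 3153469 counts after CTI-2 and from 2349758 to 3929532 counts in controls. At these depths 3 counts stood for 0.951 to 1.36 CPM (counts scaled to a library total of 1000000) after CTI-2 and for 0.763 to 1.28 CPM in controls. Levels below are the deposited CPM, and they and their intervals cover counting error of amplified cDNA only. Separate cultures are nowhere stated for the 3 libraries of a group, and the spread behind each p-value may be technical. Fold changes and adjusted p-values come from edgeR's quasi-likelihood test over all 9848 genes that passed the filter on low counts, with Benjamini-Hochberg adjustment.

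KLF10 was the gene that rose, by 1.42-fold. Of the 10 genes 9 passed the filter, 1 was called higher, 0 lower and 8 were not called at an adjusted p of 0.05; over all tested genes 8.03% were called, 3.39% higher and 4.64% lower. FOSL1 was too rare to be tested. An unadjusted p under 0.05 was reached by 3 of the 9 genes, JUNB, FOS and KLF10, against 23.9% of all tested genes. CPM did not overlap between the groups for 2 of the 10 genes, KLF10 and FOSL1, against 21.4% of all genes in the table. The 1 call among 9 genes is near the background share. In bulk RNA, fewer cells that express a gene and less RNA per cell cannot be told apart.

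**Figure D1:**
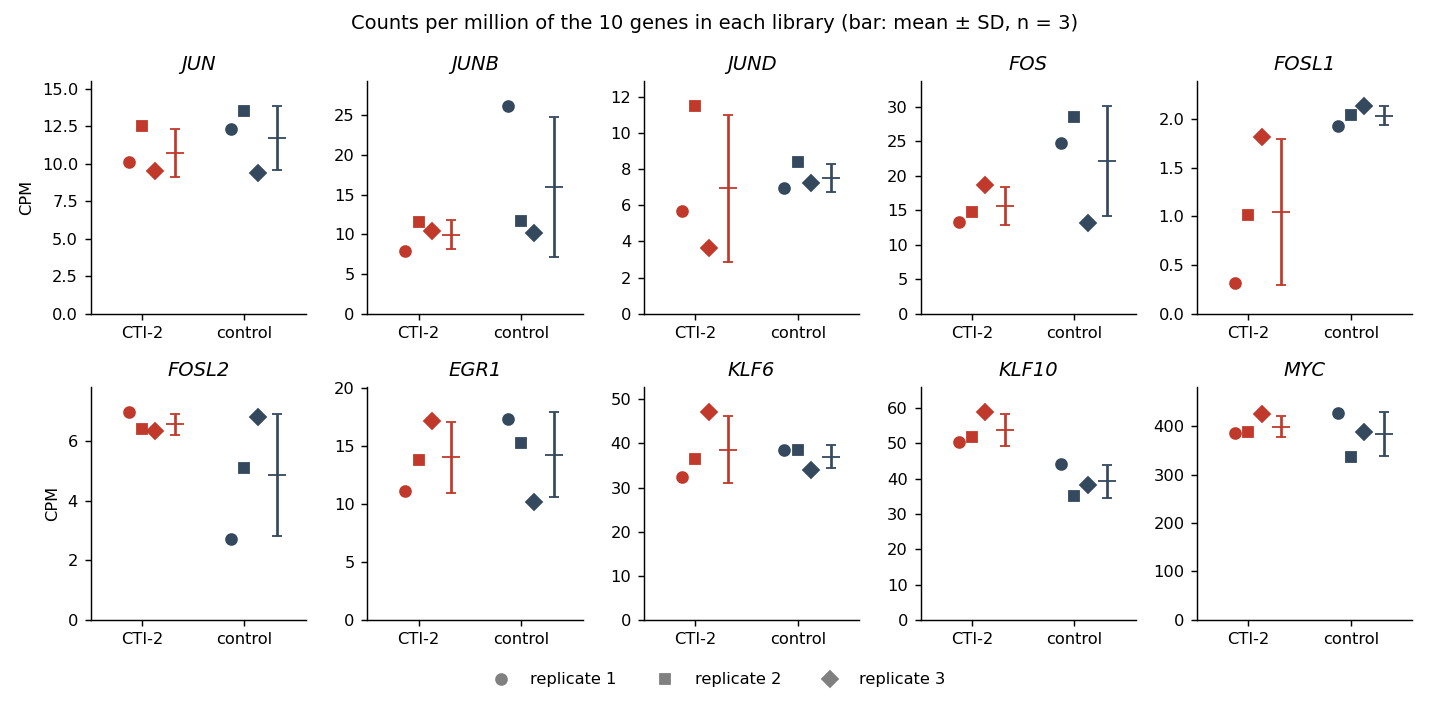
CPM (vertical axes, each starting at 0) of the 10 genes in the 3 CTI-2 libraries and the 3 control libraries; symbols mark replicates, and the bar beside them is the mean ± SD (n = 3). KLF10 and FOSL1 are the genes whose groups do not overlap, and JUNB control replicate 1, at 26.2 CPM, stands apart from the other 5 libraries at 7.93 to 11.7 CPM.

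The JUN family supplies a partner to every AP-1 dimer as defined above. JUN (ENSG00000177606, chromosome 1, 58780788 to 58784327, minus strand, GENCODE 29 on GRCh38), the founding member and the main substrate of JNK, stood at 10.1, 12.5 and 9.51 CPM in CTI-2 libraries 1 to 3, against 12.3, 13.5 and 9.36 CPM in controls 1 to 3. The groups interleaved, and the log2 fold change was -0.11 (SE 0.24, 95% interval -0.59 to 0.38, edgeR adjusted p = 0.832). JUN was thus measured on 21 to 37 counts a library after CTI-2 and 22 to 53 in controls, which left changes of up to about the bounds of that interval undetectable.

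JUNB (ENSG00000171223, chromosome 19, 12791496 to 12793315, plus strand), a JUN relative often described as a weaker activator, stood at 7.93, 11.5 and 10.4 CPM after CTI-2, against 26.2, 11.7 and 10.2 CPM in controls. The control mean was raised by 1 library: control 1 was far above the other 5, and controls 2 and 3 lay within or just above the CTI-2 values. The log2 fold change was -0.63 (SE 0.30, adjusted p = 0.209, edgeR, n = 3 per group), and -0.14 without control 1. JUNB overlaps HOOK2 on the opposite strand, and HOOK2 itself was at -0.68 on the log2 scale (edgeR adjusted p = 0.158). HOOK2 had 25 counts in control 1 (library total 2596184) and 27 in control 2 (library total 3929532). Relative to the library total it was thus higher in control 1 than in control 2. No source used here says if reads were assigned by strand, so the JUNB values are uncertain.

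JUND (ENSG00000130522, chromosome 19, 18279760 to 18281622, minus strand), the JUN relative usually described as constitutive, stood at 5.71, 11.5 and 3.62 CPM after CTI-2, against 6.93, 8.40 and 7.23 CPM in controls. CTI-2 libraries 2 and 3 lay on opposite sides of all 3 controls, and the log2 fold change was -0.05 (95% interval -0.70 to 0.59, edgeR adjusted p = 0.947). JUND rested on 8 to 34 counts a library and its transcript has a GC content of 69.7%.

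FOS proteins take part in AP-1, as defined above, beside a JUN partner. FOS (ENSG00000170345, chromosome 14, 75278774 to 75282230, plus strand), the classic target of ERK signalling, stood at 13.3, 14.8 and 18.6 CPM after CTI-2, against 24.7, 28.5 and 13.2 CPM in controls. Controls 1 and 2 were above every CTI-2 library, and control 3 was below them. The log2 fold change was -0.53 (SE 0.24, 95% interval -1.03 to -0.028), with an unadjusted p of 0.0396 and an adjusted p of 0.182 in edgeR. Without control 3 it was -0.79 (edgeR adjusted p = 0.0158), and without control 2 it was -0.22 (adjusted p = 0.616). Both the call and the size of the FOS difference thus depended on which control was left out.

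FOSL1 (ENSG00000175592, chromosome 11, 65892049 to 65900573, minus strand), the FRA-1 gene, was close to the limit of detection in all 6 libraries. It had 1, 3 and 4 counts in CTI-2 libraries 1 to 3 (0.317, 1.01 and 1.81 CPM), against 5, 8 and 5 counts in controls 1 to 3 (1.93, 2.04 and 2.13 CPM). The CTI-2 values were all below the control values, but the exact 95% counting intervals, 0.00803 to 1.77 CPM at the lowest library and 0.691 to 4.97 CPM at the highest, overlapped. Fitted without the filter on low counts, FOSL1 had a log2 fold change of -0.99 (SE 0.66, 95% interval -2.29 to 0.31, edgeR adjusted p = 0.483). The line is usually said to hold much FRA-1, and the RNA level here went against that in CTI-2 and control libraries.

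FOSL2 (ENSG00000075426), the FRA-2 gene, stood at 6.98, 6.40 and 6.34 CPM after CTI-2, against 2.70, 5.09 and 6.81 CPM in controls. Its CTI-2 libraries were close together and the controls were spread, with control 3 inside the CTI-2 range. The log2 fold change was 0.48 (SE 0.33, 95% interval -0.19 to 1.16, edgeR adjusted p = 0.395).

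Within each family the make-up of the counts was also described. FOS made up 64.6, 66.7 and 69.5% of FOS family counts in CTI-2 libraries 1 to 3, against 84.2, 80 and 59.6% in controls 1 to 3. FOSL2 made up 33.8, 28.8 and 23.7% after CTI-2, against 9.21, 14.3 and 30.8% in controls, so control 3 resembled the CTI-2 libraries in both. FOSL1 stayed at 1.54 to 6.78% after CTI-2 and 5.71 to 9.62% in controls.

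In the JUN family the share of JUNB was 33.3, 32.4 and 44.2% after CTI-2, against 57.6, 34.8 and 38.1% in controls. JUN averaged 39.4% ± 3.81 after CTI-2 and 34.1% ± 6.56 in controls, and JUND 23.9% ± 8.50 and 22.4% ± 6.28 (SD, n = 3 each). Each library's share rests on 52 to 105 family counts after CTI-2 and 52 to 140 in controls; for FOS in CTI-2 library 1 the exact 95% interval ran from 51.8 to 76.1%, and in control 1 from 74.0 to 91.6%. No test was made on the shares.

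**Figure D2:**
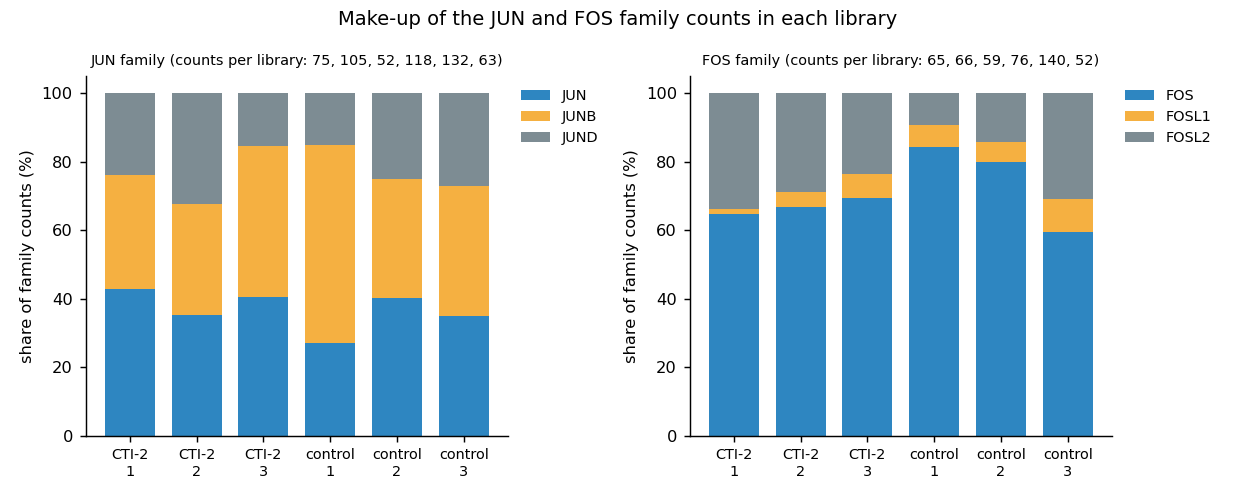
Share of the summed counts of JUN, JUNB and JUND (left) and of FOS, FOSL1 and FOSL2 (right) in each library, in percent of the family's counts, CTI-2 libraries first. FOS holds 64.6 to 69.5% in the CTI-2 libraries and from 59.6% in control 3 to 84.2% in control 1.

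EGR1 (ENSG00000120738, chromosome 5, 138465490 to 138469315, plus strand), a zinc finger factor that ERK induces through serum response factor, stood at 11.1, 13.8 and 17.2 CPM after CTI-2, against 17.3, 15.3 and 10.2 CPM in controls. The ranges of the groups nearly coincided, and the log2 fold change was -0.02 (95% interval -0.49 to 0.44, edgeR adjusted p = 0.966). An effect of CTI-2 beyond those bounds was not seen, and smaller ones could not be detected with 24 to 60 counts a library.

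KLF6 (ENSG00000067082, chromosome 10, 3775996 to 3785281, minus strand), a growth-restraining zinc finger factor, stood at 32.3, 36.4 and 47.1 CPM after CTI-2, against 38.5, 38.4 and 34.0 CPM in controls. The CTI-2 libraries enclosed the controls. Its log2 fold change was 0.08 (SE 0.16, 95% interval -0.23 to 0.40, edgeR adjusted p = 0.796).

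KLF10 (ENSG00000155090, chromosome 8, 102648779 to 102655902, minus strand), a repressor first described as a TGF-beta inducible early gene, stood at 50.4, 51.9 and 58.9 CPM after CTI-2, against 44.3, 35.1 and 38.3 CPM in controls. All 3 CTI-2 libraries were above all 3 controls. KLF10 averaged 53.7 ± 4.51 CPM after CTI-2 and 39.2 ± 4.66 CPM in controls (SD, n = 3 each), a log2 fold change of 0.50 (SE 0.14, 95% interval 0.22 to 0.79, edgeR adjusted p = 0.0197). The call was near its threshold: it was lost without CTI-2 library 2 (adjusted p = 0.051), CTI-2 library 3 (adjusted p = 0.116) or control 3 (adjusted p = 0.0559), and in DESeq2 (adjusted p = 0.0536), while the log2 fold change stayed between 0.40 and 0.58 in every alternative tried.

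MYC (ENSG00000136997, chromosome 8, 127735434 to 127741434, plus strand) was measured with the most counts of the 10 genes, 939 to 1216 a library after CTI-2 and 915 to 1324 in controls. It stood at 386, 388 and 425 CPM after CTI-2, against 427, 337 and 389 CPM in controls. The groups overlapped, and the log2 fold change was 0.11 (SE 0.11, 95% interval -0.11 to 0.33, edgeR adjusted p = 0.575). The upper and lower bounds make this the tightest estimate of the set.

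**Figure D3:**
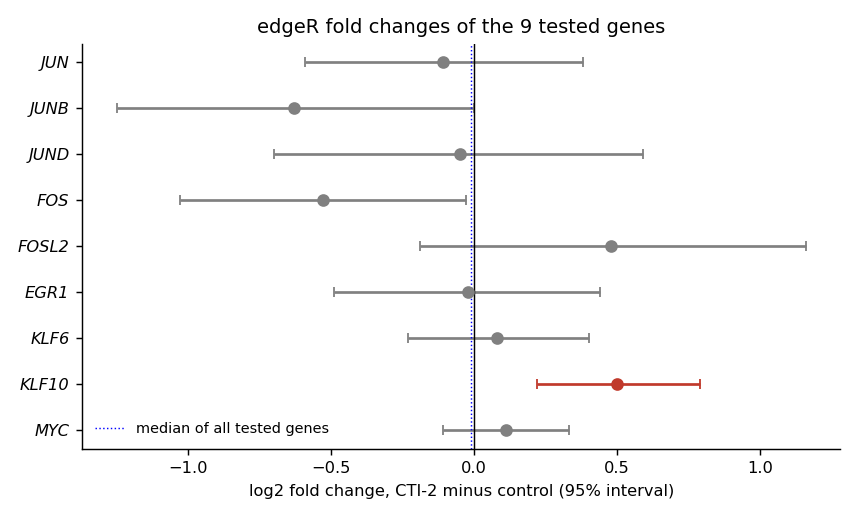
Log2 fold change of CTI-2 minus control with its 95% interval for the 9 tested genes (edgeR); the dotted line is the median of all tested genes, -0.011. KLF10, in red at 0.50, is the gene with an adjusted p under 0.05, and the intervals of JUNB and FOS end just below 0.

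Which library was highest differed between the genes. Among the controls, replicate 3 had the lowest CPM for JUN, JUNB, FOS, EGR1 and KLF6 and replicate 1 the highest for JUNB, EGR1, KLF6, KLF10 and MYC. Among the CTI-2 libraries, replicate 3 had the highest CPM for 6 genes (FOS, FOSL1, EGR1, KLF6, KLF10 and MYC) and replicate 2 the highest for JUN, JUNB and JUND. The signs of JUN, JUND, EGR1 and KLF6 turned when single libraries were left out, in ranges of -0.26 to 0.085 for JUN, -0.61 to 0.20 for JUND, -0.22 to 0.13 for EGR1 and -0.07 to 0.20 for KLF6 on the log2 scale.

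**Figure D4:**
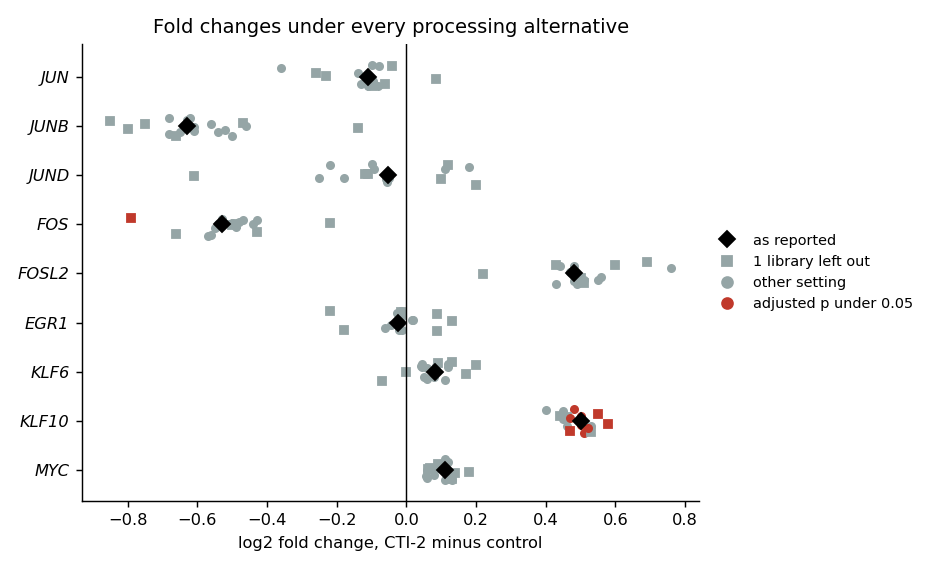
Log2 fold change of CTI-2 minus control for each tested gene as reported (black diamonds), with 1 library left out (squares) and under the other settings (circles); red marks an adjusted p under 0.05. KLF10 stays between 0.40 and 0.58. FOS passes the threshold at -0.79 without control 3 and reaches -0.22 without control 2, and JUNB reaches -0.14 without control 1.

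To show which other transcripts varied in the same way over the 6 libraries, each tested gene was set beside genes whose mean CPM was from 0.5 to 2 times its own, and likeness was measured as the root mean square difference of centred log2 CPM. Nearest to KLF10 was the RNA-binding protein gene LSM14A (difference 0.0558, against a median of 0.296 over 2965 genes), with 50.1, 54.6 and 61.1 CPM after CTI-2 and 49.3, 38.4 and 42.1 CPM in controls (log2 fold change 0.40, edgeR adjusted p = 0.0637). Nearest to JUNB was HEBP1 (0.08), which was likewise highest in control 1 at 16.9 CPM, and nearest to FOS was PLPPR2 (0.176). GATAD2A was nearest to JUN (0.0561), RMND5A to JUND (0.147), LY6D to FOSL2 (0.0374), IGF2BP2 to EGR1 (0.0953), BABAM2 to KLF6 (0.051) and EIF4G2 to MYC (0.0527). With 665 to 3733 genes compared over 6 libraries, such neighbours are a description only.

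The genes around the 10 factors were read from lists, and each count below stands against 8.03% called over all tested genes and a median log2 fold change of -0.011. Other AP-1 basic leucine zipper genes gave no call among 5 tested of 10 in the table (median -0.08), none with an unadjusted p under 0.05 and none in DESeq2. ATF7 stood at 70.1 to 72.5 CPM after CTI-2 and 59.6 to 70.5 CPM in controls, and MAFG, a small MAF partner, at 46.6 to 60.7 CPM after CTI-2 and 46.8 to 68.1 CPM in controls; both overlap another counted gene on the same strand. FOSB had 0 or 1 count a library after CTI-2 and 0 or 2 in controls, so it was not detectable above the floor of 3 counts.

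Other immediate early genes numbered 26 in the table; 19 were tested, of which 1 was higher, 0 lower and 18 not called (median -0.06). HBEGF, which encodes a ligand of the EGF receptor, rose: it stood at 67.2, 72.5 and 71.1 CPM after CTI-2, against 43.5, 52.9 and 51.5 CPM in controls (log2 fold change 0.55, SE 0.13, edgeR adjusted p = 0.00745), but leaving out control 1 ended the call (adjusted p = 0.0622). NR4A1, an orphan nuclear receptor gene named after its values were seen, had 1.59, 2.02 and 2.72 CPM after CTI-2, against 4.24, 6.36 and 3.83 CPM in controls, and did not pass (log2 fold change -1.23, adjusted p = 0.0686). Immediate early genes thus lay on both sides, 9 with a positive and 10 with a negative log2 fold change.

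Among 19 tested genes of upstream kinases and serum response, ETS and CREB factors, COPS5 rose and 18 were not called (median -0.06). COPS5, a signalosome subunit first described as a coactivator of JUN, stood at 207, 214 and 235 CPM after CTI-2, against 159, 179 and 176 CPM in controls (log2 fold change 0.40, edgeR adjusted p = 0.0204). It overlaps CSPP1 on the opposite strand (-0.09), and its call was lost without CTI-2 library 2, CTI-2 library 3 or control 1 (adjusted p up to 0.152).

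Known AP-1 target genes were called in both directions, 2 higher and 3 lower of 17 tested (median -0.04). That count of 5 became 1 without CTI-2 library 3 or control 1, 2 without CTI-2 library 1, CTI-2 library 2 or control 3, and 8 without control 2. An unadjusted p under 0.05 in edgeR was reached by 10 of the 17, against 23.9% of all tested genes. Of the 17, 8 had a positive and 9 a negative log2 fold change. The list was chosen with earlier results of these data known, and no test was made on it as a set. The urokinase receptor gene PLAUR rose to 212, 193 and 229 CPM after CTI-2, against 129, 155 and 179 CPM in controls (log2 fold change 0.50, edgeR adjusted p = 0.00645), and NQO1, a quinone reductase gene, had 0.36 (adjusted p = 0.0433). The chemokine gene CXCL8 fell to 4.76, 6.07 and 5.43 CPM after CTI-2, against 10, 14.3 and 13.6 CPM in controls (log2 fold change -1.19, SE 0.27, adjusted p = 0.00511). TGFB1, which encodes the ligand TGF-beta, fell to 1.59, 1.69 and 0.453 CPM after CTI-2, against 4.24, 4.07 and 5.53 CPM in controls (-1.71, adjusted p = 0.0227).

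CXCL8 passed whichever library was left out; DESeq2 gave no adjusted p for CXCL8 or TGFB1. The call of PLAUR was lost without CTI-2 library 3 or control 1 (adjusted p up to 0.0868). Those of NQO1 and TGFB1 were lost without any 1 library except control 2 (adjusted p up to 0.203 for NQO1 and 0.125 for TGFB1). NQO1 passed in 9 of 18 alternatives at an adjusted p of 0.05. With all libraries in, its call was lost without the filter (edgeR adjusted p = 0.051), with a stricter filter (0.0523), after thinning and with the GC trend removed (0.0701 each). TGFB1 also overlaps 4 other counted genes on the opposite strand, and it rests on 1 to 5 counts a library after CTI-2 and 11 to 16 in controls.

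EGR1 partners and targets gave no call among 5 tested, where the death receptor gene TNFRSF10B stood at 21.3 to 38.1 CPM after CTI-2 and 28.1 to 43.4 CPM in controls. It overlaps a counted gene on the opposite strand. Other KLF and SP factor genes gave no call among 7 tested, with SP1 at 38.9 to 45.5 CPM after CTI-2 and 37.2 to 55.3 CPM in controls, and KLF16 at 13.3 to 19.5 CPM after CTI-2 and 12.0 to 20.9 CPM in controls. None of 9 tested TGF-beta early genes, the class to which KLF10 belongs, passed the test (median 0.12). Among them ID3 stood at 755 to 791 CPM after CTI-2 and 793 to 821 CPM in controls. With TMM scaling its log2 fold change was -0.01 (edgeR adjusted p = 0.983). TGIF1, a SMAD corepressor gene, stood at 59.3 to 74.3 CPM after CTI-2 and 41.7 to 55.9 CPM in controls (log2 fold change 0.41, edgeR adjusted p = 0.0584). ID1 went the other way, at 37.6 to 46.6 CPM after CTI-2 and 48.1 to 88.2 CPM in controls (-0.54, edgeR adjusted p = 0.0708). Over these 3 lists an unadjusted p under 0.05 was reached by 1, 0 and 2 genes, and DESeq2 called none of them. In other alternatives the TGF-beta early list had up to 2 calls: TGIF1 passed without the filter (adjusted p = 0.0498), with the replicate block (0.0399) and without control 2 (0.0257), and the list had 1 call without CTI-2 library 1 or control 3. The EGR1 list had 1 call after thinning.

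Around MYC, 1 of 16 tested partner and turnover genes and 2 of 22 tested target genes were called. Without control 2 the counts were 2 partners and 8 targets; the target count was 1 without control 1 and in DESeq2, and the partner count was 0 without CTI-2 library 2, CTI-2 library 3, control 1 or control 3 and in DESeq2. AURKA, the gene of a kinase that protects MYC-family proteins from breakdown, was at 0.37 on the log2 scale (edgeR adjusted p = 0.0463) and passed in 5 of 18 alternatives at that threshold. The target ODC1, which encodes the first enzyme of polyamine synthesis, rose to 147, 139 and 150 CPM after CTI-2, against 118, 93.4 and 86.4 CPM in controls (0.60, SE 0.12, adjusted p = 0.00121) and passed in all 18. CAD, the gene of the enzyme that opens pyrimidine synthesis, fell to 37.1, 37.7 and 37.6 CPM after CTI-2, against 65.5, 41.7 and 68.1 CPM in controls (-0.56, adjusted p = 0.0157), and its call was lost without control 1 or control 3 and in DESeq2 (adjusted p up to 0.0938). The target list had a median of 0.01, with 11 genes on each side of 0.

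**Figure D5:**
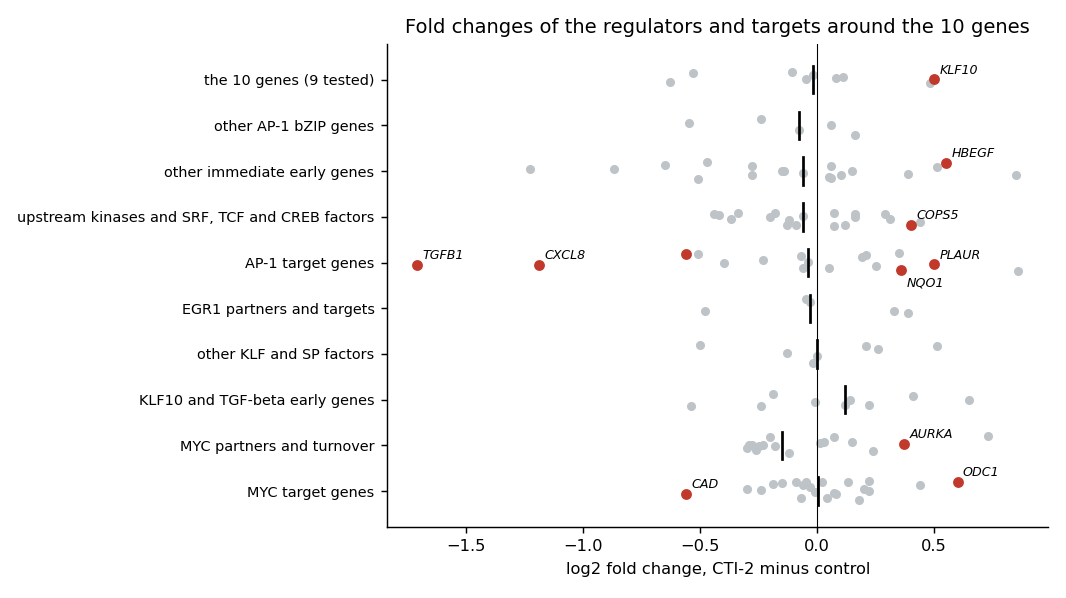
Log2 fold change of CTI-2 minus control for the tested genes of the 10 members and of the 9 lists of regulators and targets (points; marker and RNA quality lists are not drawn), with the list's median as a black bar; red points have an adjusted p under 0.05, and those described in the text carry names. Medians of the lists drawn lie between -0.15 and 0.12, and called genes lie on both sides of 0 among AP-1 targets and MYC targets.

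Markers of the labelled line gave a mixed picture. The mesenchymal genes S100A6 (5820 to 6010 CPM after CTI-2 and 5230 to 5880 CPM in controls) and LGALS1 (1160 to 1250 CPM after CTI-2 and 1050 to 1160 CPM in controls) were abundant, ESR1 and CDH1 had at most 2 counts in any library, and 4 of 10 luminal or epithelial genes in the table had at most 3 counts everywhere. VIM was low at 14.5 to 16.8 CPM after CTI-2 and 18.3 to 18.9 CPM in controls. The mesenchymal gene AXL was lower still, at 4.76 to 7.41 CPM after CTI-2 and 2.98 to 3.56 CPM in controls, and was not called. CDKN2A, usually said to be deleted in the line, was present at 254 to 321 CPM after CTI-2 and 337 to 612 CPM in controls. It was not called (log2 fold change -0.63, edgeR adjusted p = 0.0904). In 5 of 18 alternatives CDKN2A passed, among them without control 3 (edgeR adjusted p = 5.8e-06). MTAP, also usually said to be deleted, stood at 10.8 to 19 CPM after CTI-2 and 12.3 to 14.9 CPM in controls. Of the mesenchymal genes TGFBI fell (-1.15, edgeR adjusted p = 0.00658; 0.0706 without control 2 and 0.102 without control 3). ANXA1 was called higher (0.35, edgeR adjusted p = 0.0497) but passed in 7 of 18 alternatives at that threshold of 0.05. Its call was lost without any 1 library except control 2 (adjusted p up to 0.205). With all libraries in, it was also lost without the filter (0.0612), in limma-voom (0.0509) and with the GC trend removed (0.0788), among others. Of the epithelial genes KRT18, at 239 to 253 CPM after CTI-2 and 211 to 220 CPM in controls, was not called. KRT8, at 79.3 to 88.6 CPM after CTI-2 and 81.3 to 85.5 CPM in controls, was not called either. All 7 mitochondrially encoded genes of the RNA quality list were lower after CTI-2 (MT-CO2 -0.82, adjusted p = 1.2e-04) and its 4 heat shock genes were not called. The 7 calls numbered 4 without CTI-2 library 1, 3 without CTI-2 library 2, 2 without CTI-2 library 3 and 2 with the transcript length trend removed. The part of these differences in the values of the 10 genes was not tested.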

How the data were processed

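Per the labels, RNA of 3 CTI-2 and 3 control samples labelled MDA-MB-231 was read as Oxford Nanopore cDNA. The submitters' processing notes name minimap2; no source used here gives its version, the genome build, the counter or any use of strand. Deposited by the authors were raw counts of reads per gene and their CPM, which equalled count over library total to within 1e-09. Coordinates are from GENCODE 29, given where the deposited gene length equals its span (80.6% of 14408 Ensembl identifiers).

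Low counts were removed by filterByExpr, libraries were scaled with TMM, and edgeR 4.0.16 was run (glmQLFit, robust; R 4.3.3), CTI-2 minus control, adjusted by Benjamini-Hochberg. The common biological coefficient of variation was 0.1, and the fit was tested on simulated counts. SE and 95% intervals of log2 fold changes come from that fit; intervals of shares and CPM are exact binomial (Clopper-Pearson).

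The members and lists were chosen with earlier results of these data known. Genes named were the 10 members, up to 4 called genes of every other list (or the 2 of highest CPM), and the nearest gene to each member. NR4A1, BTG2, HOOK2, FOSB, VIM, AXL, ID1, S100A6, LGALS1, ESR1, CDH1 and CSPP1 were named after their values were seen. Values of 2 listed genes are not reported here. Alternatives were other scalings, filters and tools (DESeq2 1.42.0, limma 3.58.1, the last also on deposited CPM as log2(CPM + 1) or log2(CPM + 0.5)), a replicate block, each library left out, thinning to the smallest total, a threshold of 0.01, and removal of transcript length or GC trends (lowess span 0.3, transcripts known for 93.6% of tested genes).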

Additional observations from a re-analysis of the deposited data

How the results depend on the processing

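Of the fold changes of the 9 tested genes under the alternatives, 144 kept their direction and side of the threshold, 9 fell short of it, 1 newly passed it and 13 changed sign; DESeq2 gave no adjusted p for JUND and FOSL2. KLF10 missed the threshold with library totals (log2 fold change 0.46), DESeq2 (0.53), limma on log2(CPM + 1) and on log2(CPM + 0.5) (0.45 each), after thinning (0.40), at an adjusted p of 0.01 (0.50), and without single libraries, where it ranged from 0.44 to 0.58; the cause was not tested. FOS ranged from -0.79 (without control 3) to -0.22 (without control 2) over libraries left out. JUND turned positive after thinning (0.11) and with the GC trend removed (0.18), and EGR1 in DESeq2 (0.019) and after thinning (0.015). Over libraries left out JUN ranged from -0.26 to 0.085, JUND from -0.61 to 0.20, EGR1 from -0.22 to 0.13 and KLF6 from -0.07 to 0.20.

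The count of members called was 0 in the named settings that ended the call of KLF10 with all libraries in, and 0 to 1 over libraries left out, where the 1 without control 3 was FOS and not KLF10. The count of all genes called, 791, became 504 in DESeq2 (7163 genes with an adjusted p), 306 at an adjusted p of 0.01, and 400 to 1610 over libraries left out, with 1610 without control 2, where 40.6% of calls were lower, against 57.8% with all libraries and 46.2% in DESeq2. Without another library 66.7 to 71.8% were lower. The FOS share of FOS family counts after CTI-2 became 62.8% after thinning, beyond 1 SD.

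Among the other named genes SP1 turned positive after thinning (0.0069) and with the length trend removed (0.06), ID3 without the filter (0.00029), in DESeq2 (0.017) and with the GC trend removed (0.03), and MTAP negative in limma-voom (-0.0061) and in limma on log2 CPM (-0.008 and -0.0096). Over libraries left out MAFG ranged from -0.20 to 0.0016, TNFRSF10B from -0.22 to 0.14, SP1 from -0.12 to 0.095, ID3 from -0.046 to 0.064 and MTAP from -0.23 to 0.19.

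Same-numbered libraries did not deviate together (r = -0.049, 0.007 and -0.124 across genes), so the replicate numbers were not taken as pairs; with the replicate block KLF10 remained the call among the 10 genes and 942 genes were called in all. Calls among AP-1 target genes, 5 in edgeR with all libraries, numbered 1 to 8 over libraries left out and 2 in DESeq2, where CXCL8 and TGFB1 had no adjusted p. FOSL1, with 1 to 8 counts a library, is limited by depth.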
